A study of Mus musculus with 44 samples.

Results

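Secreted regulators of WNT signalling were followed through the onset of bleomycin-induced skin fibrosis and the recovery from it. The set holds 10 genes of the 43411 listed in the table, taken by name: the soluble frizzled-related proteins Sfrp1, Sfrp2, Sfrp4, Sfrp5 and Frzb, the WNT inhibitory factor Wif1, the Dickkopf proteins Dkk1, Dkk2 and Dkk3, and the R-spondin Rspo3. All 10 were found, and 9 of them had a mean normalized count above 3 and were tested among 17037 genes. Dkk1 was below that level and was not tested.

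WNT ligands are secreted lipid-modified proteins that bind Frizzled receptors together with LRP5 or LRP6, which stabilises beta-catenin and turns on genes through TCF and LEF factors. Cells hold this signal in check with secreted proteins. Frizzled-related proteins and WIF1 bind the ligands, Dickkopf proteins DKK1 and DKK2 bind the LRP co-receptors, and R-spondins act the other way by keeping Frizzled receptors on the cell surface. In skin the pathway drives the growth phase of hair follicles, and its activity in dermal fibroblasts is known to accompany fibrosis.

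RNA came from the back skin of 44 female wild-type C57Bl/6 mice, 8 weeks old at the start, which received daily subcutaneous injections of 100 µL into the back. Saline was given to 10 mice, bleomycin at 1 U/mL to 10 mice for 2 weeks and to 10 mice for 4 weeks, and 6 and 8 further mice were treated with bleomycin for 4 weeks and then left untreated for 6 and 10 weeks. Bleomycin is an antibiotic that breaks DNA and, injected under the skin, makes the dermis fibrotic. The concentration is that of the labels; a supplement of the study states a lower one. The labels give no harvest time for the saline mice, so an effect of recovery and one of age at harvest cannot be told apart, and there was no saline group for each time point.

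Between 8509094 and 15285577 reads were counted per mouse (median 11310008). The median correlation of a mouse with the others of its group was lowest, at 0.938, in mouse 2 given bleomycin for 2 weeks and next lowest, at 0.942, in saline mouse 1. Skin was checked by marker lists for 11 cell types, and none of the lists held a gene at 0 in every mouse. The list of 17 genes of the growing hair follicle had a median level of 10.05 on the log2 scale in saline skin, 2.27 and 2.60 after 2 and 4 weeks of bleomycin, and 8.25 and 11.49 after 6 and 10 weeks of recovery. Within saline skin alone it spanned 5.88 to 12.91, so its level differed among control mice as well as between groups. Without the 2 mice named above the numbers of regulators called, given below, were 3, 5, 4 and 3 against saline, the lost call being that of Sfrp1 after 6 weeks of recovery (-0.54).

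The promoter table used here (RefSeq, GRCm38.p6) matched 6 of the 10 genes: Sfrp2, Sfrp5, Frzb, Wif1, Dkk1 and Dkk2. The 250 bases before the start are shown for Sfrp2, which fell below and then rose above its saline level, and for Sfrp5, which rose without first falling; CG pairs are in capitals. The Sfrp2 stretch lies at chr3:83766071-83766320 on the plus strand and the Sfrp5 stretch at chr19:42202253-42202502 on the minus strand.
Sfrp2: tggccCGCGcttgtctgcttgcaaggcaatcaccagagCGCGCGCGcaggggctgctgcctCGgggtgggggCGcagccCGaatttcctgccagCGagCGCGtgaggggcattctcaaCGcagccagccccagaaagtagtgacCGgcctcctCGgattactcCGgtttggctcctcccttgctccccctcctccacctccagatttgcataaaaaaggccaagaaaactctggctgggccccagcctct
Sfrp5: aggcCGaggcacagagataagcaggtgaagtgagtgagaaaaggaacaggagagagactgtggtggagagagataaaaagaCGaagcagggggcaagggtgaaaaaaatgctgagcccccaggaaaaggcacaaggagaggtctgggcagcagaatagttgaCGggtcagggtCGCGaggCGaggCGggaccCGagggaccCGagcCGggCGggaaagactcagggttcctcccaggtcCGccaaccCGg
Sfrp2 had 16 CG pairs in this stretch and Sfrp5 had 13, against a median of 6 over the 32851 promoters of the table. As many as in Sfrp2 were present in 25.4% of all promoters, and as many as in Sfrp5 in 31.5%. The letters CTTTGAA and CTTTGAT, together with CTTTGTA and CTTTGTT, which TCF and LEF factors can bind, were searched on both strands of the 300 bases from 250 before to 50 after each start and were found in 16.9% of all promoters. Among the 6 matched genes 1 held them, Dkk1, with 2 matches that are 117 and 98 bases before its start, at chr19:30549588-30549613 on the minus strand. The annotation used here for gene positions starts Dkk1 further upstream, so both matches lie inside the annotated gene. They are in capitals below.
Dkk1: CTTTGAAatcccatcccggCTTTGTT
These letters describe the windows only, and no binding was measured.

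Per kilobase of exon, the scale on which different genes can be set side by side, Sfrp1 was the most abundant regulator in saline skin at 296 ± 72.9 normalized counts per kb (mean ± SD, n = 10 mice), followed by Dkk3 at 184 ± 23.4. Wif1 (106 ± 39.0) and Dkk2 (95.7 ± 25.4) came next and lay within 1 SD of each other, as did Sfrp5 (55.5 ± 25.6), Sfrp2 (54.9 ± 18.6) and Sfrp4 (45.1 ± 14.9). Rspo3 and Frzb were low, at 16.0 ± 4.36 and 13.3 ± 3.54. The order changed with treatment. After 4 weeks of bleomycin Sfrp4 had dropped to ninth place, at 7.73 ± 4.01 per kb, with Dkk1 as the only gene below it, and after 6 weeks of recovery (n = 6) Sfrp4 stood at 178 ± 35.7 and Sfrp2 at 223 ± 89.1, within 1 SD of Sfrp1 at 191 ± 37.7. Dkk3 led the 6-week recovery group at 303 ± 25.4, but its gap to Sfrp2 was within the SD of Sfrp2.

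A gene was called changed when limma gave an absolute fold change above 1.5 (log2 0.585) and a Benjamini-Hochberg adjusted p-value below 0.05 over all 17037 genes, and fold changes are on log2(normalized count + 1). All comparisons with saline share the same 10 control mice. After 2 weeks of bleomycin, 3 of 9 regulators were called, all lower (Sfrp1, Sfrp2 and Sfrp4), where 16.7% of all genes were called, 7.43% lower. After 4 weeks 5 of 9 were called, the same 3 lower and Sfrp5 and Frzb higher, where 17.9% of all genes were, 10.5% higher and 7.37% lower. After 6 weeks of recovery the number was again 5 of 9, where 5.04% of all genes were called, 3.33% higher and 1.71% lower: Sfrp2, Sfrp4, Sfrp5 and Dkk3 were higher and Sfrp1 was lower. After 10 weeks 3 of 9 were called, Sfrp2, Sfrp4 and Sfrp5, all higher, where 3.05% of all genes were, 2.05% higher. The median log2 fold change of the 9 regulators was -0.41, 0.02, 0.44 and 0.36 in these comparisons in that order, and the median of all genes lay within 0.01 of 0 in each.

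**Figure D1:**
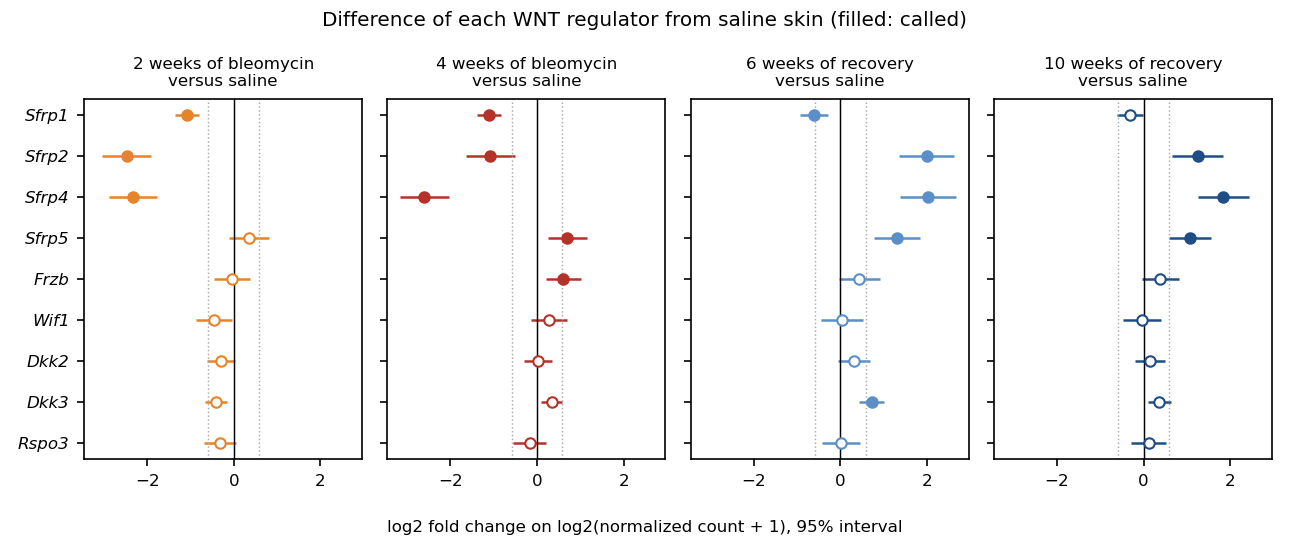
Log2 fold change of each tested regulator against saline skin, on log2(normalized count + 1), in the 4 comparisons; bars are 95% intervals, filled points were called, and dotted lines mark the fold change of 1.5. Sfrp2 and Sfrp4 lie far left of 0 in both bleomycin groups and far right of it in both recovery groups, at -2.47 and -2.32 after 2 weeks and at 1.99 and 2.02 after 6 weeks of recovery.

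Sfrp4 showed the widest swing of the regulators. It encodes a frizzled-related protein that binds WNT ligands, and the gene lies at chr13:19623104-19632994 on the plus strand (GRCm38). Normalized counts in saline skin ran from 121 to 283 with a median of 170.0. After 2 weeks of bleomycin they ran from 13.5 to 72.3 (median 28.0), and after 4 weeks from 10.2 to 71.6 (median 34.0). Every mouse of both bleomycin groups was below every saline mouse, a pattern seen in 1.33% of all genes after 2 weeks and 2.21% after 4 weeks. After 6 weeks of recovery Sfrp4 ran from 595 to 1014 (median 688) and after 10 weeks from 423 to 1358.5 (median 603). All 14 recovered mice were above every saline mouse, which in the higher direction held for 1.41% of all genes at 6 weeks and 0.282% at 10 weeks.

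The limma log2 fold change of Sfrp4 against saline was -2.32 (SE 0.28, adjusted p = 5.25e-09) after 2 weeks and -2.60 (SE 0.28, adjusted p = 3.09e-10) after 4 weeks of bleomycin. It was 2.02 (SE 0.32, adjusted p = 3.84e-05) after 6 weeks and 1.84 (SE 0.29, adjusted p = 8.84e-05) after 10 weeks of recovery. Sfrp4 was thus 6.07-fold lower than saline at the end of treatment and 4.07-fold higher 6 weeks later. Set against the 4-week group directly, the rise was 4.62 (SE 0.32, adjusted p = 7.16e-15) at 6 weeks and 4.44 (SE 0.29, adjusted p = 7.46e-16) at 10 weeks. Neither recovery group overlapped with the 4-week group, as for 4.44% and 2.66% of all genes in the higher direction. In whole skin, fewer cells that express a gene and less RNA per cell cannot be told apart. The fibroblast list, 7 genes that include Col1a1 and Pdgfra, had median log2 levels of 13.55 in saline skin, 12.87 and 13.20 in the bleomycin groups and 13.67 and 13.05 in the recovery groups, and the fat cell list of 8 genes had 10.96, then 10.28 and 10.41, then 11.06 and 11.21. With either list as a covariate the 4 differences of Sfrp4 from saline were still called. They ran from -2.36 to 2.18 with the first list and from -2.25 to 1.97 with the second. Both covariates were added after the data were seen, and both lists differed between groups. The fibroblast list holds collagen genes and does not count cells. These fits therefore cannot tell cell number and RNA per cell apart.

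Sfrp2, a frizzled-related protein made by dermal fibroblasts, moved in the same directions. In saline skin its normalized count ran from 64.1 to 205 with a median of 108. It ran from 12.3 to 44.3 (median 18.3) after 2 weeks of bleomycin and from 14.7 to 105 (median 55.4) after 4 weeks. All 10 mice of the 2-week group were below every saline mouse, as for 1.33% of all genes, and 7 of 10 were after 4 weeks. In recovery Sfrp2 ran from 292 to 740.2 (median 423) at 6 weeks and from 129 to 734 (median 279) at 10 weeks. At 6 weeks all 6 mice were above every saline mouse, as for 1.41% of all genes, and at 10 weeks 6 of 8 were.

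Sfrp2 differed from Sfrp4 in that its level had come part of the way back by the fourth week of treatment. The log2 fold change against saline was -2.47 (SE 0.28, adjusted p = 9.01e-10, limma) after 2 weeks and -1.07 (SE 0.28, adjusted p = 0.00176) after 4 weeks. The direct comparison of 4 with 2 weeks gave a rise of 1.40 for Sfrp2 (SE 0.28, adjusted p = 0.00170), whereas Sfrp4 gave -0.28 with a 95% interval of -0.84 to 0.28. In this comparison 4 of 9 regulators were called, Sfrp2, Frzb, Wif1 and Dkk3, all higher, where 2.35% of all genes were called, 1.49% higher. In recovery Sfrp2 stood at 1.99 (SE 0.32, adjusted p = 4.37e-05) and 1.25 (SE 0.29, adjusted p = 0.00658) against saline. An antisense gene, Gm26771, overlaps Sfrp2, and since the strand setting of the counting is not given in the sources used here its reads cannot be assigned with certainty; its own count did not exceed 2 reads in any mouse.

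**Figure D2:**
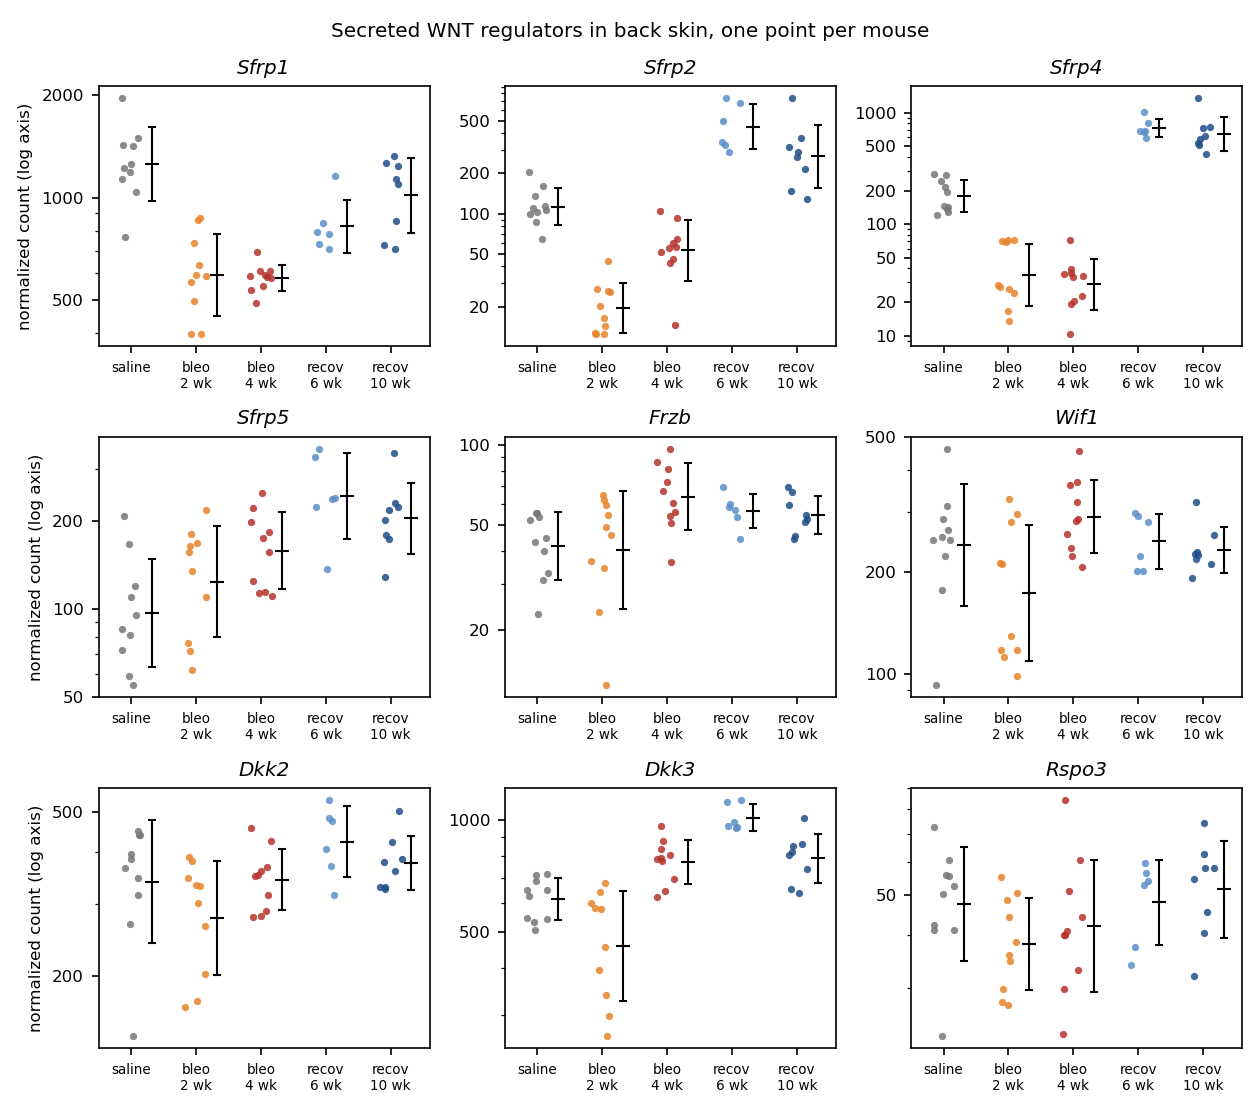
Normalized counts of the 9 tested regulators, on log axes, with 1 point per mouse for saline (n = 10), bleomycin for 2 and 4 weeks (n = 10 each) and recovery for 6 (n = 6) and 10 weeks (n = 8); the black mark and bar are the mean and SD on log2(normalized count + 1), turned back to counts. Sfrp4 falls from a median of 170.0 to 34.0 at 4 weeks and stands at 688 after 6 weeks of recovery, whereas Dkk2 and Rspo3 overlap across all groups.

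Against the 4-week bleomycin group, 2 of 9 regulators were called after 6 weeks of recovery, Sfrp2 and Sfrp4, where 11.9% of all genes were called, 4.8% higher. After 10 weeks 3 of 9 were, Sfrp1, Sfrp2 and Sfrp4, where 15.8% of all genes were, 6.73% higher. All of these were higher in recovery. Sfrp2 rose by 3.06 (SE 0.32, adjusted p = 4.89e-10) at 6 weeks and by 2.32 (SE 0.29, adjusted p = 2.46e-08) at 10 weeks. Every recovered mouse was above every 4-week mouse, as for 4.44% of all genes at 6 weeks and 2.66% at 10 weeks. Between 10 and 6 weeks of recovery limma called 0 of 9 regulators, edgeR and DESeq2 on the recovered reads called 0 as well, and 0.088% of all genes were called. Sfrp2 and Dkk3, 2 of 9, had an unadjusted p below 0.05 there, with log2 differences of -0.74 (95% interval -1.41 to -0.07) and -0.36 (-0.67 to -0.06), and the interval of Sfrp4 was -0.86 to 0.49.

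Sfrp1 is a frizzled-related protein also made in hair follicles, and it fell with treatment and returned slowly. The gene lies at chr8:23411502-23449632 on the plus strand. Its normalized count ran from 767 to 1969 (median 1242) in saline skin, from 397 to 871 (median 591) after 2 weeks and from 493 to 692 (median 588) after 4 weeks of bleomycin. All 10 mice of the 4-week group and 8 of 10 of the 2-week group were below every saline mouse. No overlap with saline in the lower direction was seen in 2.21% of all genes after 4 weeks. In recovery Sfrp1 ran from 707 to 1158 (median 789) at 6 weeks and from 707 to 1329 (median 1117) at 10 weeks. Both groups overlapped with saline but not with the 4-week group, as for 4.44% and 2.66% of all genes in the higher direction.

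The log2 fold change of Sfrp1 was -1.08 (SE 0.14, adjusted p = 2.33e-08, limma) and -1.11 (SE 0.14, adjusted p = 1.29e-08) after 2 and 4 weeks, which is 2.12-fold and 2.16-fold lower. After 6 weeks of recovery it was -0.61 (SE 0.16, adjusted p = 0.0110), just past the fold threshold, and without saline mouse 1 or 3 or 6-week mouse 5 or 6 it came to between -0.58 and -0.54 and was no longer called. After 10 weeks it was -0.31 with a 95% interval of -0.60 to -0.01 (adjusted p = 0.234), and the rise over the 4-week group was 0.80 (SE 0.15, adjusted p = 2.79e-05). The hair follicle list fell and returned over the same groups. With that list as a covariate the difference of Sfrp1 from saline was -0.57 (adjusted p = 0.0247) after 2 weeks, under the fold threshold, and -0.66 (adjusted p = 0.00362) after 4 weeks, and the rise from 4 weeks of treatment to 10 weeks of recovery was 0.34 (adjusted p = 0.174). The list itself differed between groups, so this fit also takes out part of the group difference.

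Sfrp5, a further frizzled-related protein, at chr19:42197971-42202252 on the minus strand, was higher after 4 weeks of bleomycin, when Sfrp1, Sfrp2 and Sfrp4 were lower. The normalized count ran from 54.8 to 207 (median 90.5) in saline skin, from 61.9 to 217 (median 145) after 2 weeks and from 111 to 249.5 (median 166) after 4 weeks of bleomycin. It ran from 137 to 352 (median 239) after 6 weeks of recovery and from 128 to 339 (median 209) after 10 weeks. The groups overlapped with saline throughout, with 5 of 6 mice above every saline mouse at 6 weeks of recovery as the clearest separation. The log2 fold change was 0.35 (95% interval -0.10 to 0.81) after 2 weeks, 0.70 (SE 0.23, adjusted p = 0.0123, limma) after 4 weeks, 1.31 (SE 0.26, adjusted p = 0.000893) after 6 weeks of recovery and 1.07 (SE 0.24, adjusted p = 0.00459) after 10 weeks.

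Markers of myelinating Schwann cells moved with Sfrp5. The list of 5 genes, Mbp, Sox10 and Prx among them, had median log2 levels of 8.67 in saline skin, 9.23 and 9.60 after 2 and 4 weeks of bleomycin, and 9.79 and 9.27 after 6 and 10 weeks of recovery. Its summed normalized counts ran from 1657 to 4528 in saline skin and from 4286 to 7176 after 6 weeks of recovery. The list thus differed between groups, so any fit with it as a covariate also takes out part of the group difference. This covariate was added after the data were seen. With the list as a covariate Sfrp5 no longer differed from saline in the called direction, at -0.43 (adjusted p = 0.0489) after 4 weeks, -0.01 (adjusted p = 0.991) after 6 weeks of recovery and 0.20 (adjusted p = 0.541) after 10 weeks. In the same fit the 6-week rise of Sfrp4 was 1.48 with an adjusted p of 0.0630, while its 10-week rise was 1.48 with an adjusted p of 0.00900. Sfrp2 was the only regulator still called at 6 weeks of recovery, at 2.03 (adjusted p = 0.00727), and after 4 weeks of bleomycin Sfrp1, Sfrp2 and Sfrp4 were. With the hair follicle list as a covariate Sfrp5 was 0.37 (adjusted p = 0.441) after 4 weeks of bleomycin and was still called in recovery, at 1.21 and 1.08. After 2 weeks the fibroblast and fat cell lists as covariates each gave 0.83 for Sfrp5 (adjusted p = 0.0130 and 0.00785), called, whereas the Schwann cell and hair follicle lists gave -0.16 and -0.029.

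Dkk3, a Dickkopf-related glycoprotein that, unlike DKK1, is not an established LRP antagonist, lies at chr7:112116017-112159057 on the minus strand. Its normalized count ran from 508 to 718 (median 638) in saline skin and from 263 to 677 (median 518) after 2 weeks of bleomycin, a log2 difference of -0.41 (adjusted p = 0.00753, limma) that stayed under the fold threshold. After 4 weeks it ran from 621 to 962 (median 788), after 6 weeks of recovery from 952 to 1133 (median 974), and after 10 weeks from 638 to 1012 (median 812). All 6 mice of the 6-week recovery group were above every saline mouse, as for 1.41% of all genes. The rise at that point was 0.73 (SE 0.14, adjusted p = 0.000883), and the rise from 2 to 4 weeks of treatment was 0.75 (SE 0.12, adjusted p = 0.000325). At 10 weeks the difference from saline was 0.36 (adjusted p = 0.0920). With the Schwann cell list as a covariate the values were 0.27 (adjusted p = 0.504) for 6 weeks of recovery and 0.53 (adjusted p = 0.00900) for 2 to 4 weeks. Neither was called, the second for its fold change only. After 2 weeks that list gave -0.59 (adjusted p = 5.97e-05), called. With the fibroblast list the difference from saline was 0.03 after 2 weeks and 0.67 (adjusted p = 3.19e-05) after 10 weeks of recovery, the latter called. The rise from 2 to 4 weeks was then 0.52 (adjusted p = 0.00218), under the fold threshold. The smooth muscle list of 4 genes, with which Dkk3 varied most closely within groups, had median log2 levels of 10.00 in saline skin, 9.77 and 10.31 after 2 and 4 weeks of bleomycin and 10.29 and 9.89 in recovery, and its part in the changes of Dkk3 was not tested.

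Frzb, also known as SFRP3, was called at the edge of the criteria. Its normalized count ran from 22.9 to 55.7 (median 43.8) in saline skin and from 36.2 to 97.0 (median 63.9) after 4 weeks of bleomycin, where 7 of 10 mice were above every saline mouse. The log2 fold change was 0.61 (SE 0.20, adjusted p = 0.0164, limma), and it fell to between 0.51 and 0.57 and was not called without saline mouse 2, 5 or 10 or 4-week mouse 7, 8 or 10. The rise of 0.65 from 2 to 4 weeks had an adjusted p of 0.0470, which ranged from 0.0539 to 0.107 without 2-week mouse 1, 2, 4, 5 or 7 or 4-week mouse 2, 5, 6, 7, 8, 9 or 10. With the hair follicle list as a covariate the 4-week difference was 0.38 (adjusted p = 0.379). The rise from 2 to 4 weeks was also not called with edgeR (0.58, adjusted p = 0.0537), with DESeq2 (0.58, under the fold threshold), without the filter on low counts (adjusted p = 0.0742) or with only those groups in the fit (adjusted p = 0.142). Differences from saline after 2 weeks and in recovery were -0.05, 0.44 and 0.39, all with 95% intervals that spanned 0.

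Wif1, which binds WNT ligands outside the cell, was not called against saline in any group. The normalized counts ran from 92.5 to 461 (median 251) in saline skin, from 98.8 to 328 (median 170.2) after 2 weeks and from 206 to 455 (median 284) after 4 weeks of bleomycin. The rise from 2 to 4 weeks of treatment was 0.74 (SE 0.21, adjusted p = 0.0243, limma), and without 2-week mouse 1, 2 or 5 or 4-week mouse 5 its adjusted p lay between 0.0531 and 0.0555. The difference after 2 weeks was -0.47 (95% interval -0.88 to -0.05, adjusted p = 0.0733), and without saline mouse 2, the lowest of the saline mice, it was -0.62 (adjusted p = 0.00812) and called. After 4 weeks the difference was 0.28 (adjusted p = 0.302), and with the hair follicle list as a covariate it was 0.75 (adjusted p = 0.0463) and called. In recovery Wif1 stood at 0.04 (-0.44 to 0.52) and -0.05 (-0.49 to 0.39) against saline.

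Dkk2, which binds LRP5 and LRP6 and can weaken or support the signal depending on the cell, was not called in any of the 8 comparisons. Its mean normalized count was 354 ± 94.3 in saline skin, 289 ± 82.5 and 347 ± 60.2 in the bleomycin groups and 430.5 ± 81.6 and 379 ± 60.5 in the recovery groups. Rspo3, the only R-spondin of the set, was not called either, with means of 49.5 ± 13.5, 39.3 ± 9.91, 44.8 ± 17.5, 49.1 ± 10.6 and 53.1 ± 13.4 in the same order. The 95% intervals against saline ranged from -0.68 to 0.51 on the log2 scale over the 4 comparisons for Rspo3 and from -0.61 to 0.69 for Dkk2, so changes above 2-fold were outside them. Rspo3 overlaps an antisense gene, Gm48159, and Gm20276 on its own strand, and its counts are uncertain to that extent. Dkk1, the best known Dickkopf inhibitor of LRP6, had 0 reads in 31 of 44 mice and at most 3 reads, the floor used here, in 40. Its highest count was 5 reads, so a level of Dkk1 was not measurable at this depth in most mice and no fold change is given.

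Other WNT pathway genes were described from a list of 73, of which 67 were tested. After 2 weeks of bleomycin 1 was called higher and 20 were called lower, and after 4 weeks 1 was called higher and 13 lower. In recovery the calls were 2 higher and 3 lower at 6 weeks and 2 higher and 1 lower at 10 weeks, where 5.04% and 3.05% of all genes were called. The called share of the list after 2 weeks stands beside 9.3% of all genes called higher and 7.43% called lower, and the median log2 fold change of the list was -0.28 against 0.00 for all genes. After 4 weeks 10.5% of all genes were called higher and 7.37% lower, and the median of the list was -0.17. In recovery the median of the list was -0.08 at both times.

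Among 16 tested WNT ligands, 5 were called lower and 1 higher after 2 weeks, and 4 lower and 1 higher after 4 weeks, beside 7.43% and 7.37% of all genes called lower and 9.3% and 10.5% called higher. Wnt10b, a ligand of growing hair follicles, had mean normalized counts of 69.1 in saline skin and 17.9 and 16.8 after 2 and 4 weeks, with log2 fold changes of -1.87 and -1.95 and no overlap with saline. Wnt5a, which signals mostly without beta-catenin, fell by 1.43 and 1.35 on the log2 scale, again without overlap, and was still -0.87 (adjusted p = 0.00445, limma) after 6 weeks of recovery. No overlap with saline in the lower direction was seen in 1.33% of all genes after 2 weeks and 2.21% after 4 weeks. Wnt11 fell by 1.28 after 2 weeks. Wnt16 was higher by 1.17 (adjusted p = 7.74e-07) after 2 weeks and by 1.14 (adjusted p = 1.41e-06) after 4 weeks, when 9 of 10 mice were above every saline mouse. Wnt2 was lower and then higher than in saline skin, with mean normalized counts of 36.8 in saline skin, 16.9 after 4 weeks of bleomycin and 83.8 and 95.3 in recovery. Its log2 fold changes were -0.90 and -1.13 under bleomycin and 1.17 and 1.32 in recovery, all called. All 14 recovered mice were above every saline mouse, as for 1.41% of all genes at 6 weeks and 0.282% at 10 weeks. With the Schwann cell list as a covariate, 6-week recovery gave 0.74 for Wnt2 (adjusted p = 0.375) and -0.47 for Wnt5a (adjusted p = 0.438), neither called. Wnt9a rose by 0.60 and 0.76, and the first of these lay between 0.53 and 0.58 and was not called without saline mouse 2, 6 or 7 or 6-week mouse 2 or 5. The 6-week rise of Wnt9a was also under the fold threshold with DESeq2 (0.58) and with the fibroblast list as a covariate (0.57). With the Schwann cell list it was 0.45 (adjusted p = 0.274).

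Of 17 receptors and co-receptors 6 were called lower after 2 weeks and 5 after 4 weeks, and 0 of 17 were called by limma in recovery against saline, where 5 and 4 had an unadjusted p below 0.05 at 6 and 10 weeks. Over all genes 7.43% and 7.37% were called lower under bleomycin, and 5.04% and 3.05% were called in recovery. Fzd2, a Frizzled receptor, fell by 1.02 after 2 weeks without overlap, as for 1.33% of all genes in the lower direction. Ror2, a receptor for WNT5A, had a log2 fold change of -1.20 after 2 weeks. Fzd5 fell by 0.97 and 1.03 after 2 and 4 weeks, and Fzd10 and Kremen2, the second a co-receptor of Dickkopf proteins, fell by 0.69 and 0.72 after 4 weeks. Among secreted regulators outside the set, Rspo1 was called lower in all 4 comparisons, by 0.95, 0.79, 0.82 and 0.92, and Notum, an enzyme that inactivates WNT ligands, fell by 0.81 and 1.25 in the bleomycin groups. Rspo2 fell by 1.34 after 2 weeks from a mean of only 8.09 normalized counts, and was not called without saline mouse 1 (-1.08, adjusted p = 0.0528). The R-spondin receptor Lgr5 fell by 0.64 after 2 weeks and the ubiquitin ligase Znrf3 by 0.81 after 6 weeks of recovery. Lgr5 was under the fold threshold without 2-week mouse 2 (-0.53), and Znrf3 had adjusted p-values of 0.0537 to 0.168 without saline mouse 3 or 6-week mouse 3, 5 or 6.

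Against saline, genes that respond to or transmit the signal inside the cell were called lower or not called. Lef1, a nuclear partner and target of beta-catenin, had means of 266 in saline skin and 44.1 and 55.9 in the bleomycin groups, with log2 fold changes of -2.04 (SE 0.40, adjusted p = 8.10e-05, limma) and -1.64 (SE 0.40, adjusted p = 0.00114). Nkd1 and Nkd2, feedback inhibitors, fell by 0.98 and 0.67 after 2 weeks, the second being under the fold threshold without saline mouse 1 (-0.53) or 2-week mouse 2 (-0.57). Tcf7l1, a transcription factor of the pathway, fell by 1.26 and 0.82. Axin2, a general feedback target, was among the genes not called in any comparison with saline. With the hair follicle list as a covariate the number of pathway genes called after 2 weeks was 11 in place of 21. The share of all genes called in this fit is not given here, so the drop cannot be read as particular to pathway genes. Lef1 then stood at -0.05 after 2 weeks and 0.09 after 4 weeks, Fzd5 at 0.45 and 0.21, Nkd2 at 0.20 and Lgr5 at -0.14. The list itself differed widely between groups, with medians of 10.05 in saline skin and 2.27 and 2.60 after 2 and 4 weeks. This fit therefore also takes out part of the group difference. Calls were also lost after 2 weeks for Wnt11 (-0.15), Ror2 (-0.50), Rspo2 (-0.30) and Notum (-0.85, adjusted p = 0.102), after 4 weeks for Fzd10 (-0.46) and Tcf7l1 (-0.56), and after 6 weeks of recovery for Znrf3 (-0.62).

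**Figure D3:**
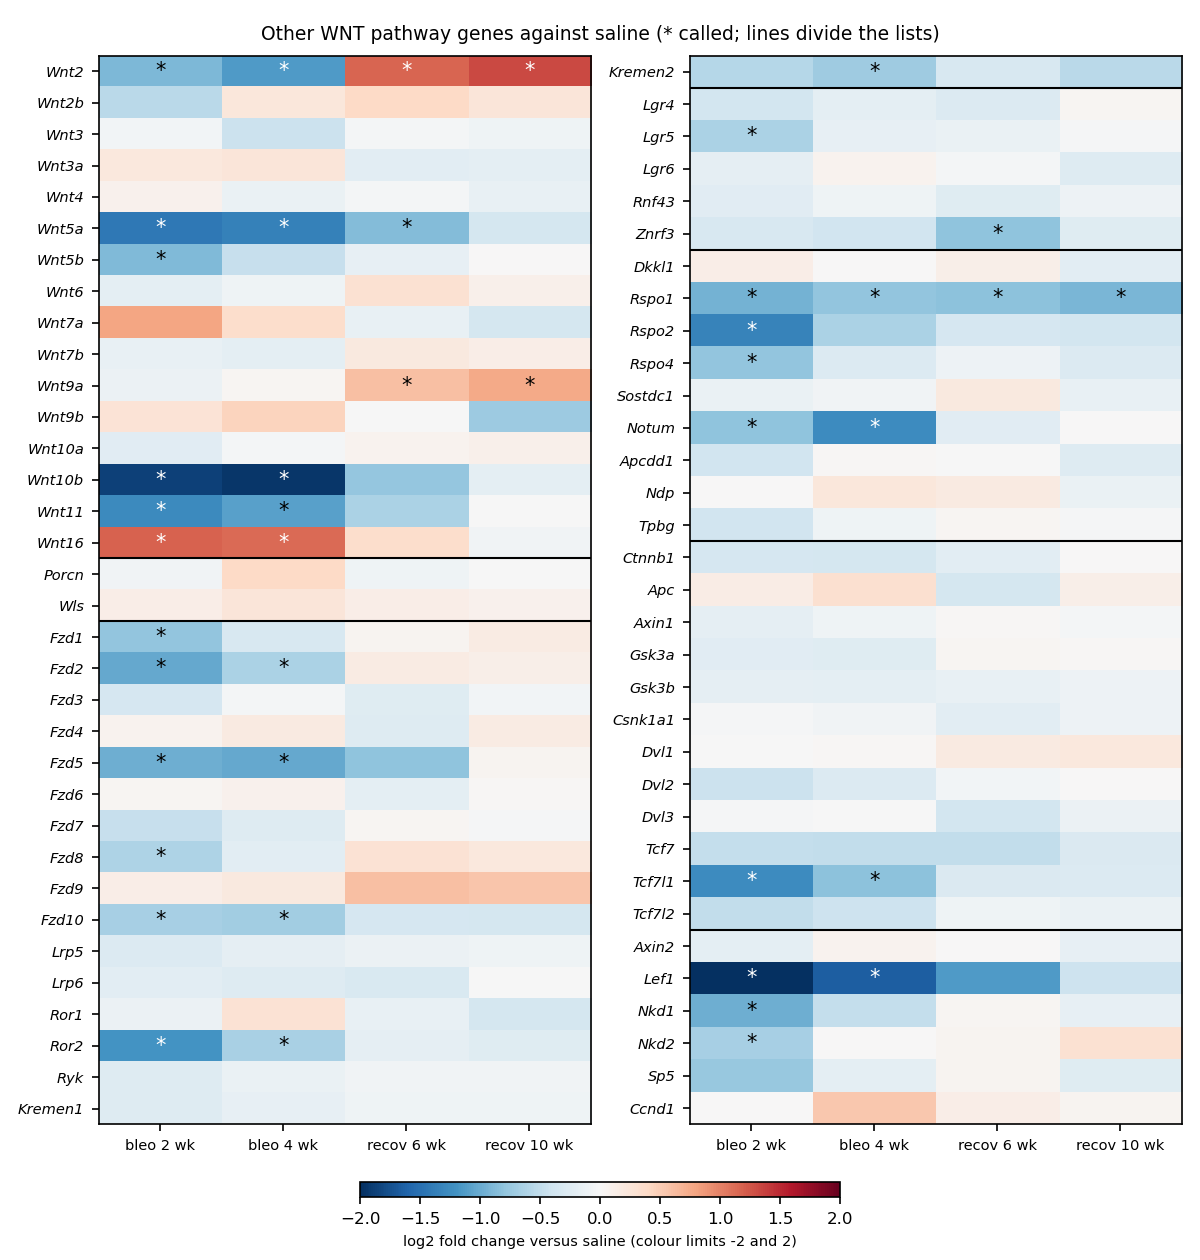
Log2 fold change against saline skin of the 67 tested WNT pathway genes outside the set, on log2(normalized count + 1), with a colour for each of the 4 comparisons and stars for called genes; lines divide ligands, ligand maturation, receptors, R-spondin receptors, other regulators, transducers and feedback targets. Blue cells of the bleomycin columns include Wnt10b at -1.87 and -1.95 and Lef1 at -2.04 and -1.64, and Wnt2 is red in the recovery columns at 1.17 and 1.32.

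Mice of one group also differed from each other, and regulators that moved together within groups were sought over all 44 mice after group means were taken off. Of 36 pairs, 3 had an adjusted p below 0.05 by Pearson's r and 4 by Spearman's rho, in a two-sided permutation test within groups with 100000 resamples. Dkk2 and Dkk3 had a Pearson r of 0.66 and a Spearman rho of 0.68 (adjusted p = 0.00036 and 0.00072), Sfrp1 and Wif1 had 0.63 and 0.57 (0.00108 and 0.00216), and Wif1 and Dkk3 had 0.62 and 0.59 (0.00264 and 0.00540). Without the 2 mice whose first gene lay farthest from its median over all 44 mice, r was 0.69, 0.57 and 0.57. These mice were chosen by level and not by deviation from the group mean, so mice with large deviations can remain. Sfrp5 and Frzb passed by rho (0.47, adjusted p = 0.0371) but not by r (0.44, adjusted p = 0.0535), and by both, at 0.54 and 0.52 (adjusted p = 0.00630 and 0.0105), without saline mouse 1 and 2-week mouse 2. The unadjusted p of Dkk2 with Dkk3, 1e-05, is the smallest these permutations can give. Sfrp2 and Sfrp4, which shared their directions between groups, had an r of 0.27 and a rho of 0.27 within groups (adjusted p = 0.282 and 0.312).

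Relations to the hair follicle list were tested in the same way for the 9 regulators. Sfrp1 had an r of 0.51 and a rho of 0.44 (adjusted p = 0.00612 and 0.0388), and r was 0.45 once the 2 mice with the most extreme list levels were set aside. These 2 mice were chosen by level over all mice and not by deviation from the group mean. The largest deviations of the list, -5.31 in 6-week recovery mouse 5 and -4.64 in 10-week recovery mouse 4, stayed in. The step cannot show how far r rests on them. Wif1 had an r of 0.35 (adjusted p = 0.0348) and a rho of 0.30 (adjusted p = 0.153), with r of 0.31 after the same step. The other 7 regulators had adjusted p-values of 0.354 or more. Without saline mouse 1 and 2-week mouse 2 the same test gave Sfrp1 an r of 0.47 (adjusted p = 0.0161) and a rho of 0.39 (adjusted p = 0.129).

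The genes most like each regulator within groups are given as a description, without a test, over 44 mice that share depth and tissue makeup. Among the 3 genes nearest to Sfrp5 were Mbp (r = 0.85) and Prx (r = 0.83), both of myelinating Schwann cells. The r of Sfrp5 with the Schwann cell list was 0.85, and also 0.85 with the 2 mice of the most extreme list level set aside. Nearest to Sfrp4 was Wnt2 (r = 0.75), a WNT ligand that also rose in recovery, followed by Gabra3 (0.70) and Mfap5 (0.65). Dkk3 was nearest to Prelp, Fmod and Egflam (0.86, 0.86 and 0.85), matrix genes, and had an r of 0.84 with the smooth muscle list and 0.70 with the fibroblast list. Sfrp1 was nearest to Cux1, Entpd3 and Specc1 (0.86, 0.85 and 0.85), and had an r of 0.61 with a dermal papilla list of 5 genes, with which Wif1 had 0.76. Sfrp2 had no neighbour above 0.63 (Arf4, then Kdelc2 at 0.62 and Loxl3 at 0.59), and Frzb was nearest to Reep1, Hs6st2 and Gm12319 (0.71, 0.71 and 0.69).

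**Figure D4:**
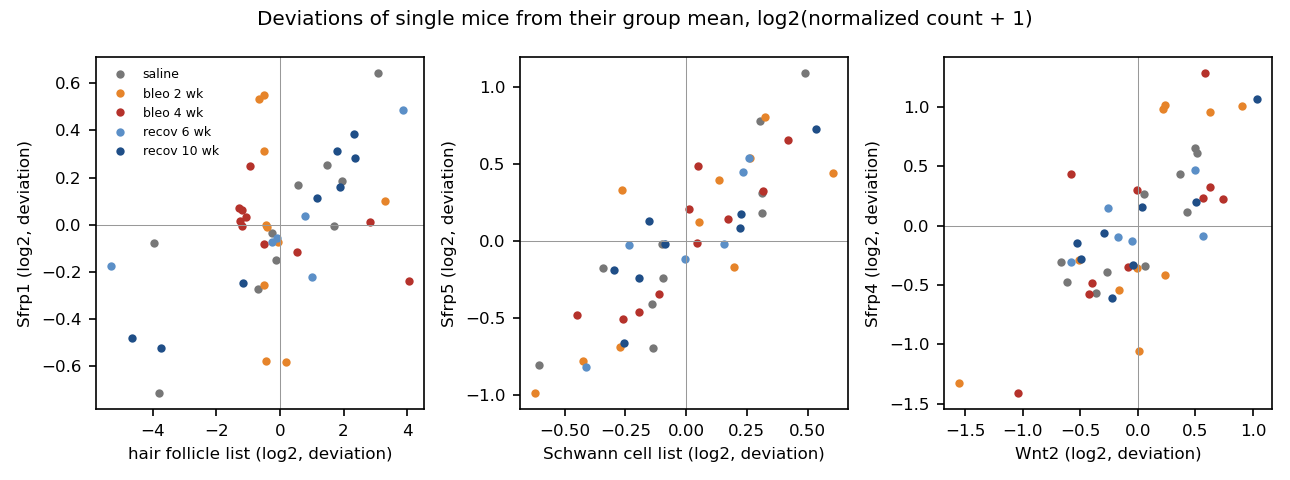
Deviations of single mice from their group mean on log2(normalized count + 1), coloured by group, for Sfrp1 against the hair follicle list, Sfrp5 against the Schwann cell list and Sfrp4 against Wnt2. The Sfrp5 points follow a line (r = 0.85, n = 44), the Sfrp4 points follow Wnt2 (r = 0.75), and the Sfrp1 points spread more widely (r = 0.51), with most of the 2-week bleomycin mice near one hair follicle level.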

How the data were processed

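RNA from mouse back skin was sequenced by the authors from stranded mRNA libraries, aligned to mm10 with STAR 2.4.0 and counted on genes; the counter, whether it used strand, and the gene models are not given in the sources used here. The deposited signal is a normalized count: the authors divided the counts of each mouse by a DESeq2 (1.12.3) size factor. Whole reads were recovered from the step between values (tolerance 0.01 reads; 100.0% of values in every mouse), although in mouse 1 given bleomycin for 2 weeks the step lay too near 1 to fix the unit by itself.

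Gene names came from the annotation tables (42929 identifiers, 98.9%), and positions from GRCm38. The 10 regulators, the 73 other pathway genes and the marker lists were chosen with earlier results of these data known. Groups follow the sample labels. Differences were tested with limma 3.58.1 (mean-variance trend, R 4.3.3) on the log2 of the normalized count plus 1, keeping genes whose mean exceeded 3, with all 5 groups in one fit. Within-group correlations used permutations within groups (100000 resamples), adjusted over 36 pairs or 9 list relations. Named pathway genes are, per list and comparison with saline, up to 3 called genes with the largest change; neighbours are the 3 genes with the highest r.

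Alternatives were a pseudocount of 0.1, no filter, 10 or more normalized counts in 6 or more mice, no fold change threshold, trimmed mean rescaling, a fit of only the 2 groups in question, a block for replicate number, a hair follicle covariate, leaving out mice, and edgeR 4.0.16 (quasi-likelihood) and DESeq2 1.42.0 on recovered reads. Covariates for Schwann cell, fibroblast and fat cell lists were added after the data were seen. Fits and correlations were tested on simulated data. Krt85 and Tchh of the hair follicle list had no row. Values of some single marker genes are not reported here. Each mouse is a separate animal; no batch is given in the labels. Python 3.11.15 was used with numpy 2.4.6, pandas 2.3.3 and matplotlib 3.10.9.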

Additional observations from a re-analysis of the deposited data

Results flagged for a closer look

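Single mice stood far from the rest of their group in 5 of the 45 combinations of a tested regulator and a group. The rule gives about 1 in 20 by chance for normally distributed values. It was applied to normalized counts without a log, and all 5 flagged values were the highest of their group. That rate need not hold here, so an excess over chance is not shown. Sfrp2 and Sfrp4 were both highest, by a wide gap, in mouse 2 of the 10-week recovery group, at 734 and 1358.5 normalized counts. The others were Sfrp1 at 1158 in mouse 4 of the 6-week recovery group, Sfrp2 at 44.3 in mouse 9 given bleomycin for 2 weeks and Sfrp4 at 71.6 in mouse 6 given bleomycin for 4 weeks. Leaving out any one mouse did not end a call of Sfrp2 or Sfrp4 in the comparisons where they were called.

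Differences between time points passed the test of the difference itself for 9 values, all log2 fold changes from limma. Between 2 and 4 weeks of bleomycin these were Sfrp2 at 1.40, Frzb at 0.65, Wif1 at 0.74 and Dkk3 at 0.75. Against the 4-week bleomycin group they were, after 6 weeks of recovery, Sfrp2 at 3.06 and Sfrp4 at 4.62, and after 10 weeks Sfrp1 at 0.80, Sfrp2 at 2.32 and Sfrp4 at 4.44.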

How the results depend on the processing

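Over the numbers of regulators called, limma, edgeR and DESeq2 gave counts within 1.5 times of each other in every comparison, and a pseudocount of 0.1, no filter, a filter of at least 10 counts in at least 6 mice and trimmed mean rescaling did so too. Leaving out single mice gave 3 to 4 regulators called after 2 weeks of bleomycin, 4 to 5 after 4 weeks, 4 to 5 after 6 weeks of recovery, 3 to 3 after 10 weeks, 2 to 4 between 2 and 4 weeks (2 without 2-week mouse 1, 2 or 5 or 4-week mouse 5), 2 to 3 and 3 to 3 in 6-week and 10-week recovery against 4-week bleomycin, and 0 between the recovery groups. For other pathway genes the counts were 19 to 22, 12 to 14, 3 to 8 and 3 to 4 in the comparisons with saline, with 8 without mouse 4 and 3 without mouse 5 of the 6-week recovery group. Without a fold change threshold 4 regulators were called in 6-week recovery against 4-week bleomycin, and 38, 30 and 5 pathway genes after 2 weeks, 4 weeks and 10 weeks of recovery. With the Schwann cell list as a covariate 3 regulators were called after 4 weeks, 1 after 6 weeks of recovery and 1 between 2 and 4 weeks, and 1 pathway gene after 6 weeks of recovery. With the fibroblast list 5 regulators and 6 pathway genes were called after 10 weeks of recovery and 1 regulator between 2 and 4 weeks, a count that was 2 with only those groups in the fit. With the hair follicle list 11 pathway genes were called after 2 weeks. Shares of all genes called in the fits with a covariate are not given here. The regulators related to the hair follicle list numbered 1 in place of 2 with a pseudocount of 0.1, by rho, or without saline mouse 1 and 2-week mouse 2. Without those mice the count is by r, as the permutation test of rho gave Sfrp1 an adjusted p of 0.129.

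Differences from saline that crossed 0 were, apart from some of Sfrp5, Frzb, Fzd5, Nkd2 and Lef1, of genes not called there. With the Schwann cell list Sfrp5 was -0.16, -0.43 and -0.0097 after 2 weeks, 4 weeks and 6 weeks of recovery; after 4 weeks Frzb was -0.00071, Dkk2 -0.43 and Dkk3 -0.060; after 6 weeks of recovery Frzb was -0.28, Wif1 -0.050 and Dkk2 -0.20; after 10 weeks Frzb was -0.084 and Dkk2 -0.20. With the hair follicle list Sfrp5 was -0.029 and Wif1 0.068 after 2 weeks, Dkk2 -0.14 after 4 weeks, Rspo3 -0.021 after 6 weeks of recovery, Fzd5 0.45 and 0.21 after 2 and 4 weeks, Nkd2 0.20 after 2 weeks and Lef1 0.091 after 4 weeks. With the fibroblast list Frzb was 0.40, Dkk2 0.23 and Dkk3 0.033 after 2 weeks and Wif1 0.10 after 10 weeks of recovery. With the fat cell list Frzb was 0.45 and Dkk2 0.077 after 2 weeks, and Wif1 0.022 and Dkk2 -0.022 after 10 weeks of recovery. With edgeR and DESeq2, Frzb was 0.059 and 0.044 after 2 weeks, Dkk2 -0.014 and -0.030 after 4 weeks and Wif1 -0.033 and -0.042 after 6 weeks of recovery, and Rspo3 was -0.0068 there with DESeq2. Without saline mouse 1 and 2-week mouse 2, Frzb was 0.04 after 2 weeks, Dkk2 -0.12 after 4 weeks and Wif1 0.059 after 10 weeks of recovery. Leaving out single mice gave -0.14 to 0.13 for Frzb after 2 weeks, -0.12 to 0.061 for Dkk2 after 4 weeks, -0.11 to 0.14 for Wif1 and -0.10 to 0.11 for Rspo3 after 6 weeks, and -0.20 to 0.06 for Wif1 after 10 weeks. The cause was not tested.

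The labels number the mice from 1 in each group. Over 78 pairs of same-numbered mice the correlation of deviations ranged from -0.69 to 0.38 with a median of -0.0022, and 18 pairs were above 0.1, and 4 of 44 mice correlated best with their own number, so the mice share only a number. With the replicate number as a block, 3, 5, 5 and 3 regulators and 21, 14, 5 and 3 pathway genes were called against saline, and 4, 3, 3 and 0 regulators in the direct comparisons; Wif1 after 10 weeks of recovery was 0.021. The block ended no call of a regulator. Regulators with few reads limit the precision: Dkk1 could not be tested, and Frzb and Rspo3 rested on 11 to 111 and 19 to 79 reads per mouse.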
